A study of Mus musculus with 384 samples.

Results

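Transcripts of 10 genes were followed cell by cell in regulatory T (Treg) cells of mouse ear skin: Actb, Tmsb4x, Capg, Vim, Ahnak, Crip1, Lgals1, S100a4, S100a6 and S100a11. They were taken by symbol from a named list of cytoskeleton, S100 and galectin genes, and all 10 were found among the 50556 gene symbols of the count matrix. Skin of both ear sides received 5% imiquimod, a Toll-like receptor agonist, or vehicle in 2 mice each, and Treg cells were sorted on day 3. The labels give no strain, age or sorting markers. Single cells filled 2 imiquimod plates and 2 vehicle plates, which are not tied to single mice, so that the plate was the replicate. Another 16 wells held 10 cells each and 20 wells held no cell. Neither kind carries a treatment label, so they entered no comparison between treatments.

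Actin filaments and intermediate filaments carry the shape and movement of a T cell, and proteins that bind actin monomers or cap filament ends set how fast filaments grow. S100 proteins are small calcium sensors that bind annexins and other partners, and galectin-1 is a secreted lectin that binds glycans on the cell surface. Several of these genes are known to be higher in effector T cells that have entered tissue than in resting lymphoid T cells.

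Single-cell wells with at least 500 genes and 10000 counts were kept, which left 38 and 44 cells on imiquimod plates 1 and 2, and 62 and 58 on vehicle plates 1 and 2. Their median number of genes detected was 975 and 1093 on the imiquimod plates and 1040 and 1503 on the vehicle plates. Kept cells held 47481 to 5946386 counts. Treg markers were present on every plate, with Foxp3 in 37.1% and Il2ra in 47.5% of kept cells. All 8 listed Treg markers were detected on each plate, at a summed 9434 and 8080 CPM, counts scaled to a fixed library total, on the imiquimod plates and 13267 and 10449 CPM on the vehicle plates. Fibroblast markers summed to 119.5 and 202.5 CPM on the imiquimod plates and to 94.9 and 351.06 CPM on the vehicle plates. Macrophage and dendritic cell markers summed to 13.2 and 296.8 CPM on the imiquimod plates and to 74.5 and 156.98 CPM on the vehicle plates. They had a count in 26.3% and 56.8% of cells on the imiquimod plates and 33.9% and 60.3% on the vehicle plates. In the same plate order, endothelial markers summed to 1.77, 290.2, 163.8 and 520.5 CPM and keratinocyte markers to 8.17, 416.0, 18.4 and 73.5 CPM. Neutrophil markers summed to 54.4, 55.6, 120.5 and 395.7 CPM. Mast cell markers summed to 4.50 and 6.42 CPM on the imiquimod plates and to 272.6 and 115.6 CPM on the vehicle plates, from 1 of 6 markers on each imiquimod plate and 2 on each vehicle plate. Erythroid markers had a count in 55.3% and 45.5% of cells on the imiquimod plates and 3.23% and 24.1% on the vehicle plates, at a summed 654.3 and 341.1 CPM against 690.5 and 35.3 CPM. The part of these markers in the levels of the 10 genes was not tested. Of the 8 fibroblast markers, 4 had counts on each imiquimod plate, against 8 and 7 on the vehicle plates. Vim, which fibroblasts and macrophages also express, stood at 2162 CPM or more in the unscaled sum of every plate.

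Detection ran from nearly every cell for beta-actin to a small minority for S100a4. Of all kept cells, a count was found in 87.1% for Actb, 62.4% for Ahnak, 59.4% for Vim, 50.0% for Crip1 and 40.1% for Tmsb4x. Lgals1 was detected in 36.1%, S100a11 in 30.2%, Capg in 23.8%, S100a6 in 21.8% and S100a4 in 13.4%. Depth raised these shares: with each cell thinned to 40000 counts, they ran from 79.2% for Actb, 53.0% for Vim and 48.0% for Ahnak to 19.8% for S100a6 and 8.91% for S100a4. Of the 20 empty wells, 8 held a count of at least 1 of the 10 genes. Among the 8 empty wells with at least 10000 counts, 7 did, each with a count of Actb. A count of Actb alone, found in 87.1% of kept cells, thus did not set kept cells apart from these wells. One empty well, with 1527760 counts, 885 genes and 4 of the 10 genes, passed the filter that cells had to pass. Actb had counts in 8 empty wells, up to 8002 CPM, Crip1 in 3, Tmsb4x in 2, and Ahnak and S100a6 in 1 each. Vim, Capg, Lgals1, S100a4 and S100a11 had no count in any of the 20. Since only 8 of these wells reached 10000 counts, this allows a share of up to 37.5% of such wells, for counting error only. The empty wells with a count of any of the 10 genes lay in 3 of the 4 blocks of 96 consecutive sample numbers. The block of vehicle plate 2 held 3, that of imiquimod plate 1 held 2 and that of imiquimod plate 2 held 3. The block of vehicle plate 1 held 0 of 5. All 5 wells of that block were far under 10000 counts, too shallow to compare with the other blocks.

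**Figure D1:**
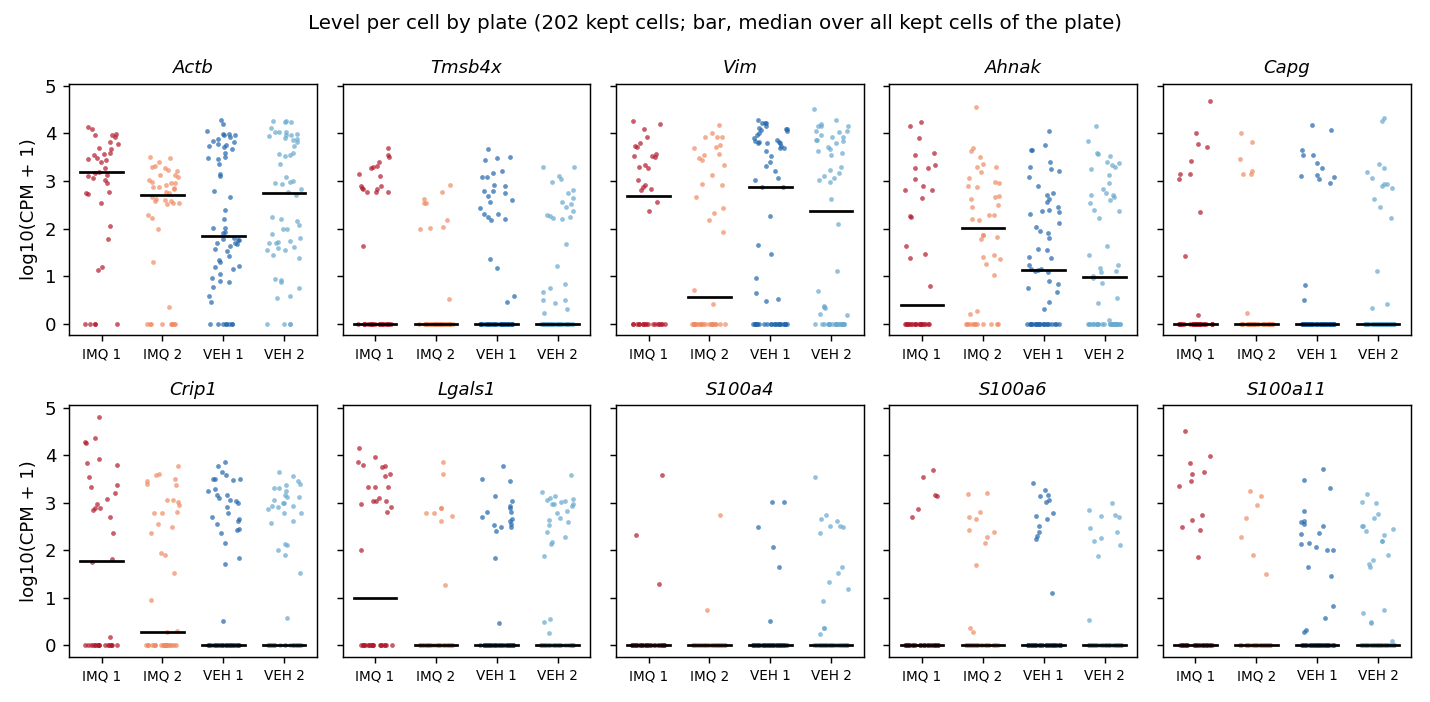
Level of each gene per kept cell as log10(CPM + 1), for imiquimod plates 1 and 2 (IMQ 1, IMQ 2; 38 and 44 cells) and vehicle plates 1 and 2 (VEH 1, VEH 2; 62 and 58 cells), with 1 point per cell and a bar at the plate median. Cells without a count sit at 0. Many cells have a count below 100 CPM for Actb on the vehicle plates, and for Ahnak on the vehicle plates and imiquimod plate 2.

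Between treatments, none of the 10 genes passed an adjusted p of 0.05 in edgeR's quasi-likelihood test of plate sums, and none of the 14462 genes tested did either (0%). DESeq2 on the same sums called 3 of the 10, Ahnak, Lgals1 and S100a11, against 25.9% of all genes. At an unadjusted p under 0.05 the test held 1 of the 10, Lgals1, against 11.5% of all genes. The fitted log2 fold change, imiquimod over vehicle, was positive for 7 of 10 with a median of 1.25, whereas over all genes 46.6% were positive and the median was -0.26. With DESeq2 size factors in place of TMM, 9 of 10 were positive, Actb and Vim changing sign, while the median of all genes moved to 0.11. After TMM scaling, both imiquimod plates lay above both vehicle plates for 1 gene, Ahnak, against 13.7% of all genes. Both lay below for 1 gene, S100a4, against 31.1% of all genes. Before that scaling Actb and Vim also lay below. Without imiquimod plate 1 the median of the 10 was -0.20, and that of all genes in the same fit was -2.70. Without imiquimod plate 2 these medians were 2.01 and -6.56, and edgeR called 3 of them, Crip1, Lgals1 and S100a11, against 3.91% of all genes. With a single imiquimod plate left, both fits take its variation from the vehicle plates.

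The 2 imiquimod plates differed widely from each other. In CPM after TMM scaling, all 10 genes were higher on imiquimod plate 1 than on imiquimod plate 2, with a median log2 ratio of 2.12, while 41.3% of all genes were higher there and their median was -0.02. On the vehicle plates, 7 of 10 were higher on plate 1, with a median log2 ratio of 0.60. Imiquimod plate 1 also held more short transcripts: genes with a transcript under 1000 bases took 13.9% of its counts and 7.92% on imiquimod plate 2, against 6.63% and 6.75% on vehicle plates 1 and 2. Ribosomal protein genes summed to 36517 and 18086 CPM on the imiquimod plates and to 11998 and 12939 CPM on the vehicle plates. Over the 10 genes, transcript length had a Spearman correlation of -0.24 with the log2 ratio of imiquimod plate 1 over imiquimod plate 2. The part of this shift in the levels of the 10 genes was not tested.

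**Figure D2:**
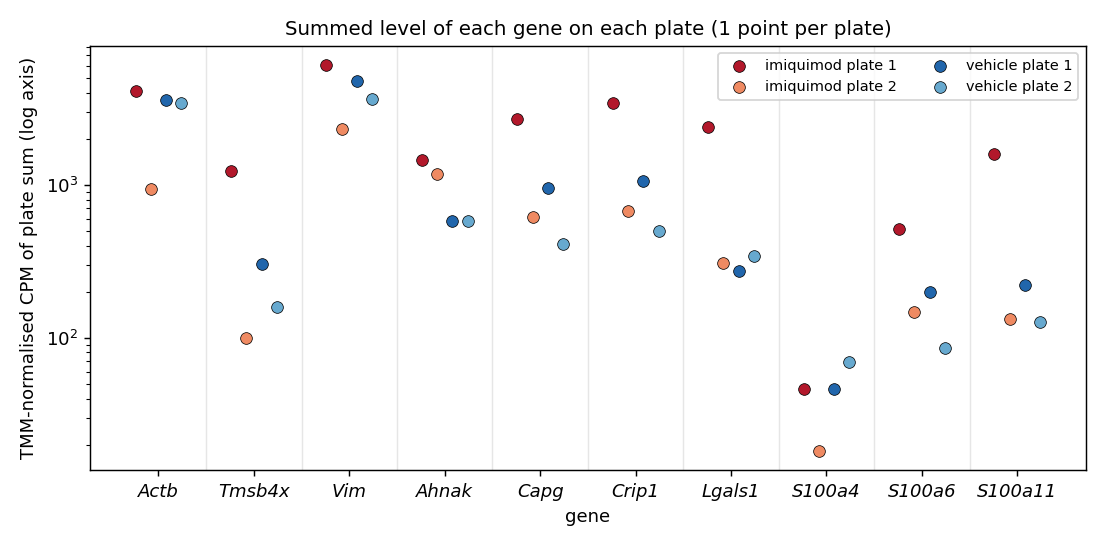
Level of each gene in the summed counts of the kept cells of a plate, in TMM-normalised CPM on a log axis, with 1 point per plate and imiquimod plates left of vehicle plates. Imiquimod plate 1 is above imiquimod plate 2 for all 10 genes, and the imiquimod plates enclose at least 1 vehicle plate for every gene except Ahnak and S100a4.

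Actb encodes beta-actin, the main building block of cytoplasmic actin filaments. A count was found in 86.8% and 79.5% of cells on imiquimod plates 1 and 2, and in 87.1% and 93.1% on vehicle plates 1 and 2. Plate sums of Actb and of the genes below are given after TMM scaling. That of Actb was 4097 and 938 CPM on the imiquimod plates and 3579 and 3439 CPM on the vehicle plates. The log2 fold change was -0.48 ± 0.57 (SE, edgeR adjusted p = 0.822). On this scale the vehicle plates were close together and lay between the 2 imiquimod plates. Before TMM scaling both imiquimod plates lay below both vehicle plates, at 2845 and 883 CPM against 3908 and 4395 CPM. Leaving out imiquimod plate 1 gave -1.80 (edgeR adjusted p = 0.0307, where 1.02% of genes passed), and leaving out imiquimod plate 2 gave 0.33.

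Low counts of Actb were more frequent on the vehicle plates, a pattern noticed after its values were seen and not tested. Among cells with an Actb count, 3 of 33 and 3 of 35 were under 100 CPM on the imiquimod plates, against 25 of 54 and 20 of 54 on the vehicle plates. These shares were 9.09% and 8.57% on the imiquimod plates and 46.3% and 37.0% on the vehicle plates. Other genes also had such cells: the share under 100 CPM was 21.1% and 33.3% on the imiquimod plates and 47.5% and 35.3% on the vehicle plates for Ahnak. For Vim it was 0% and 13.0% on the imiquimod plates and 15.4% and 18.9% on the vehicle plates. For Tmsb4x the plates of the treatments overlapped, at 5.56% and 20% with imiquimod and 15.4% and 37.0% with vehicle. For Crip1 the share was higher on the imiquimod plates, at 14.3% and 26.1%, against 10.3% and 10.7% on the vehicle plates. At 1000 CPM or more of Actb stood 24 and 12 cells on the imiquimod plates and 23 on each vehicle plate. The difference in the share of cells with any count, -6.91 percentage points, turned to 2.77 points when detection required 10 CPM. Counting cannot fully separate Actb from Actg1 and processed copies of both, since the handling of reads shared by near-identical genes is not given in the sources used here.

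Tmsb4x encodes thymosin beta-4, which holds actin monomers in reserve, and it shares sequence with processed copies. Counts were seen in 47.4% and 22.7% of cells on imiquimod plates 1 and 2, and in 41.9% and 46.6% on vehicle plates 1 and 2. Plate sums held 1236 and 99.2 CPM on the imiquimod plates and 304.04 and 157.9 CPM on the vehicle plates. This was the widest gap of the 10 genes between the imiquimod plates, 12.5-fold, and the log2 fold change of 1.53 ± 1.22 did not pass the test (edgeR adjusted p = 0.683). Capg encodes an actin filament capping protein of the gelsolin family. It was found in 28.9% and 15.9% of cells on the imiquimod plates and in 22.6% and 27.6% on the vehicle plates. Its summed level was 2675 and 618 CPM on the imiquimod plates and 954 and 410 CPM on the vehicle plates (fitted log2 ratio 1.27 ± 0.79, edgeR adjusted p = 0.559). Where Capg was detected it was often abundant: 31 of its 48 cells were at 1000 CPM or more, and 1 cell held 38.4% of its counts on imiquimod plate 1.

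Vim encodes vimentin, the intermediate filament protein of lymphocytes and mesenchymal cells. It was detected in 55.3% and 52.3% of cells on the imiquimod plates and in 62.9% and 63.8% on the vehicle plates, groups that did not overlap (difference -9.58 points; exact permutation p = 0.333, the smallest that 2 plates against 2 can give). Shares of Actb, Crip1, S100a4 and S100a11 also did not overlap between treatments, and how many of all genes did so was not computed. Thinned to 40000 counts per cell, the plates overlapped for Vim, at 55.3% and 50.0% with imiquimod and 54.8% and 51.7% with vehicle. They also overlapped for Actb, at 86.8% and 77.3% against 71.0% and 84.5%, and for S100a11, at 31.6% and 13.6% against 27.4% and 27.6%. S100a4 stayed apart, at 5.26% and 2.27% against 8.06% and 17.2%. Summed over cells, Vim reached 6037 and 2299 CPM on the imiquimod plates and 4751 and 3612 CPM on the vehicle plates. The log2 fold change was -0.00 ± 0.45 (edgeR adjusted p = 0.999). Before TMM scaling both imiquimod plates lay below both vehicle plates, at 4192 and 2162 CPM against 5188 and 4616 CPM. Of the 120 cells with a count, 86 were at 1000 CPM or more, 18 between 100 and 1000 CPM, 12 under 10 CPM and 4 between 10 and 100 CPM.

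Ahnak encodes a giant scaffold protein that links annexin 2 and S100A10 to the membrane cytoskeleton. Detection reached 50.0% and 75.0% of cells on the imiquimod plates and 64.5% and 58.6% on the vehicle plates. In plate sums it had 1454 and 1173 CPM on the imiquimod plates and 580 and 583 CPM on the vehicle plates, so that both imiquimod plates lay above both vehicle plates. The log2 fold change was 1.18 ± 0.70 and did not pass the test (edgeR adjusted p = 0.530), while DESeq2 gave 1.66 with an adjusted p of 0.0283. It was positive under every alternative run, from 0.68 to 1.66. A single cell held 39.7% and 33.4% of the counts on the imiquimod plates and 22.6% and 14.6% on the vehicle plates, and without the highest cell of each plate the log2 fold change was 1.37.

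Crip1 encodes a small LIM-domain protein. A count was found in 55.3% and 52.3% of cells on the imiquimod plates and in 46.8% and 48.3% on the vehicle plates, and the imiquimod plates lay above by 6.24 points (exact permutation p = 0.333). This direction held at 10 CPM, after thinning and in cells with at least 1000 genes, with differences of 3.19, 3.99 and 15.2 points. Leaving out a plate could not reverse it, because both imiquimod plates lay above both vehicle plates. After thinning the plates overlapped, at 52.6% and 45.5% with imiquimod and 43.5% and 46.6% with vehicle. The summed level was 3428 and 671 CPM on the imiquimod plates and 1055 and 498 CPM on the vehicle plates (fitted log2 ratio 1.40 ± 0.77, edgeR adjusted p = 0.481). One cell of imiquimod plate 1 reached 64004 CPM and held 36.2% of that plate's Crip1 counts. Without imiquimod plate 1 edgeR gave -0.12 for Crip1, and without imiquimod plate 2 it gave 2.24 (edgeR adjusted p = 0.954 and 0.0278).

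Lgals1 encodes galectin-1, which Treg cells are known to express. Counts were seen in 50.0% and 20.5% of cells on the imiquimod plates and in 30.6% and 44.8% on the vehicle plates. Plate sums held 2368 and 307.8 CPM on the imiquimod plates and 272.5 and 343.9 CPM on the vehicle plates. Imiquimod plate 1 thus stood far above the 3 other plates, which were close together. The log2 fold change was 2.12 ± 0.96 with an unadjusted p of 0.0461 and an edgeR adjusted p of 0.430. DESeq2 gave 2.76 with an adjusted p of 0.0278, and edgeR gave 0.10 without imiquimod plate 1 and 3.05 without imiquimod plate 2 (edgeR adjusted p = 0.970 and 0.0066).

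The 3 S100 genes lie on mouse chromosome 3 and, with Capg, were the 4 of the 10 genes found in the fewest cells. S100a4 and S100a6 are separated by a single protein-coding gene, S100a5, whereas S100a11 lies 59 protein-coding genes beyond S100a6, in the RefSeq gene order. The 250 bases before the transcript start of each are shown because S100a4 and S100a6 are neighbours; S100a4 was found in fewer cells on 3 plates and in more on vehicle plate 2 (RefSeq, GRCm38.p6, plus strand, chr3:90603520-90603769, chr3:90612644-90612893 and chr3:93520246-93520495 in this order). Capitals mark the letters TATAAA and TGANTCA, searched on both strands and chosen after the sequences were seen.
S100a4: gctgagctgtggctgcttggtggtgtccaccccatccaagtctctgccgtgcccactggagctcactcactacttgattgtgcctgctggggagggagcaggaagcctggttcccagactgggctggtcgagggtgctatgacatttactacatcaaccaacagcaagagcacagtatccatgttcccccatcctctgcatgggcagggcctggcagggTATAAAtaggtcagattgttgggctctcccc
S100a6: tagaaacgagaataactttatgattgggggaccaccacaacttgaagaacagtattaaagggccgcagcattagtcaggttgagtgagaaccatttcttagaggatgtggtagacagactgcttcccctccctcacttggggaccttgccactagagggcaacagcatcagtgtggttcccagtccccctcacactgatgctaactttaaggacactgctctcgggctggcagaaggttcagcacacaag
S100a11: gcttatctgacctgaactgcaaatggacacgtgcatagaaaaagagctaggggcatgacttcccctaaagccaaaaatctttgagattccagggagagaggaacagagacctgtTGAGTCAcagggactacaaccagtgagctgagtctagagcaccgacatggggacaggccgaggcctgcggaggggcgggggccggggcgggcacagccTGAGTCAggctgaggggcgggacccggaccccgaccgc
TATAAA begins 31 bases before the start of S100a4, and the nearer TGANTCA begins 38 bases before that of S100a11. Of 32851 RefSeq windows of this length, 12.4% held TATAAA and 6.75% held TGANTCA. The S100a6 window held neither. Windows were found for 8 of the 10 genes, and a match in these letters is not a measured site.

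S100a4 encodes a calcium sensor that binds non-muscle myosin. It was detected in 7.89% and 4.55% of cells on imiquimod plates 1 and 2, and in 9.68% and 27.6% on vehicle plates 1 and 2 (difference -12.4 points; exact permutation p = 0.333). Summed over cells, it reached 46.46 and 18.2 CPM on the imiquimod plates and 46.48 and 68.9 CPM on the vehicle plates, so that the groups were apart by a margin far smaller than the spread between plates. The log2 fold change of -0.84 had an SE of 2.74 (edgeR adjusted p = 0.954). On imiquimod plate 2 only 2 cells had a count, and 1 of them held nearly all of its counts.

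S100a6 encodes calcyclin, a sensor found in dividing and motile cells. Detection reached 15.8% and 27.3% of cells on the imiquimod plates and 22.6% and 20.7% on the vehicle plates. In plate sums it had 515 and 147.3 CPM on the imiquimod plates and 198.2 and 85.9 CPM on the vehicle plates (fitted log2 ratio 1.22 ± 1.41, edgeR adjusted p = 0.816). Only 11 cells held both S100a4 and S100a6. S100a11 encodes a sensor that binds annexin 1. A count was found in 31.6% and 15.9% of cells on the imiquimod plates and in 33.9% and 36.2% on the vehicle plates. The summed level was 1582 and 131.9 CPM on the imiquimod plates and 220 and 126.2 CPM on the vehicle plates, a log2 fold change of 2.31 ± 1.19 (edgeR adjusted p = 0.451; DESeq2 2.96, adjusted p = 0.0432). One cell held 47.4% of its counts on imiquimod plate 1, and edgeR gave -0.29 without that plate and 3.29 without imiquimod plate 2 (edgeR adjusted p = 0.935 and 0.0125).

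Per kilobase of transcript, the order of the mean levels was Crip1, Vim, Actb, Lgals1, S100a11, Capg, Tmsb4x, S100a6, S100a4 and Ahnak. The means were 2776 CPM per kilobase for Crip1, 1904 for Vim, 1569 for Actb, 90.4 for S100a4 and 52.4 for Ahnak, and 510 to 1029 for the 5 genes between Actb and S100a4. Over the 3 plates other than imiquimod plate 1, the mean of Crip1 was 1456 CPM per kilobase, below the 1621 of Vim, and Vim was above Crip1 on both vehicle plates. Without that plate Capg stood at 530 CPM per kilobase and Lgals1 at 385.1, while S100a11, S100a6 and Tmsb4x stood at 311.6, 309.9 and 267.995. S100a4 and Ahnak were below each of the 8 other genes on all 4 plates. S100a4 and Ahnak overlapped with each other, as did neighbours in the order among the 8.

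Cells differed widely in how many of the 10 genes they showed. The median number with a count was 3.5 and 3 on imiquimod plates 1 and 2, and 4 on each vehicle plate, a difference of -0.75 (exact permutation p = 0.333). Of all kept cells, 8 showed none of the 10, 31 showed 8 or more and 7 showed all 10. The number followed the richness of the library: cells with 0 to 2 of the genes had a median of 757 genes detected, and cells with 8 to 10 had a median of 2570. Within plates the number of the 10 genes and the number of all genes detected had a mean Spearman correlation of 0.67, with both counts taken from the same library. It was 0.76 and 0.70 on imiquimod plates 1 and 2, and 0.61 and 0.60 on vehicle plates 1 and 2. When detection required 10 CPM, when cells were thinned to 40000 counts, or when cells under 1000 genes were left out, the difference between treatments turned positive, at 0.25, 0.25 and 1.

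**Figure D3:**
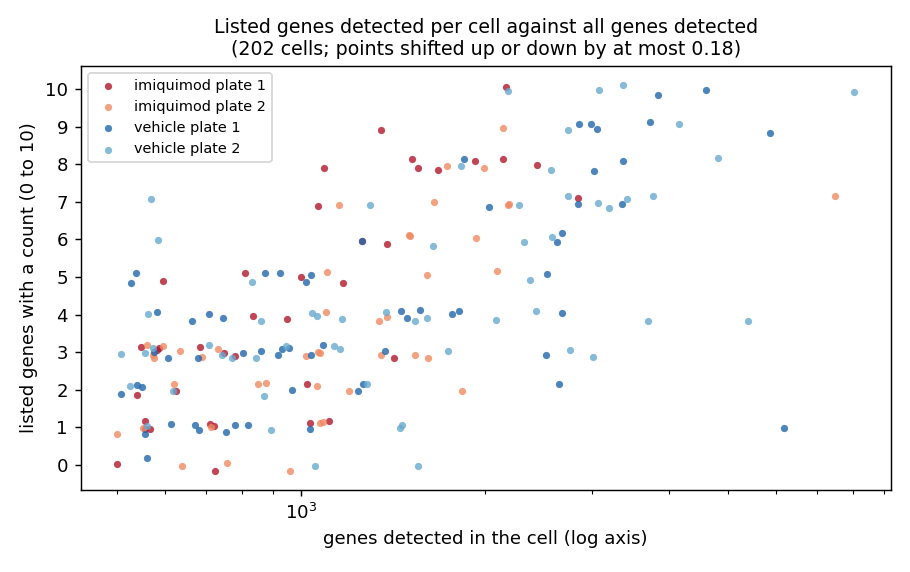
Number of the 10 genes with a count in a cell against the number of all genes detected in it on a log axis, for all kept cells coloured by plate. All cells with 8 or more of the genes came from libraries with over 1000 genes, on each of the 4 plates.

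The 10 genes tended to occur in the same cells. Phi, the correlation of presence and absence between 2 genes within a plate, averaged 0.281 over the 45 pairs and 4 plates (SD 0.038 over plates). The plate means were 0.334 and 0.250 on the imiquimod plates and 0.283 and 0.259 on the vehicle plates. Phi was positive for all 45 pairs on average, and 44 pairs were positive on all 4 plates. The exception was Ahnak and Capg, at -0.036 on imiquimod plate 2. Over all pairs of the 4641 genes found in at least 10% of cells, the median phi was 0.0815 and 81.1% were positive, beside a median of 0.276 for the 45 pairs. These genes were not matched to the 10 in share of cells or level, so the gap does not measure an excess particular to the 10. All of these pairs share the number of genes detected in a cell. With the trend over that number removed, the mean of the 45 pairs was 0.144, and each remained positive. With depth set equal by thinning to 40000 counts per cell the mean was 0.300, and with detection at 10 CPM it was 0.302. The trend was not removed for the pairs of all genes, so 0.144 has no background value beside it.

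The closest pair was Vim and Crip1, with a mean phi of 0.46 that ran from 0.37 to 0.57 between plates. Of the cells with Crip1, 81.2% also had Vim, and the phi with the gene-number trend removed was 0.35, again the highest. Tmsb4x and S100a11 followed at 0.45, Ahnak and Crip1 at 0.44, Tmsb4x and Crip1 at 0.44, and Capg and S100a6 at 0.41. Crip1 had the highest mean phi with the other 9 genes, 0.337, and S100a4 the lowest, 0.193. Actb, which most cells showed, was weakly linked to Ahnak at 0.13, to Crip1 at 0.13 and to S100a4 at 0.13. The neighbours S100a4 and S100a6 had a phi of 0.19.

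**Figure D4:**
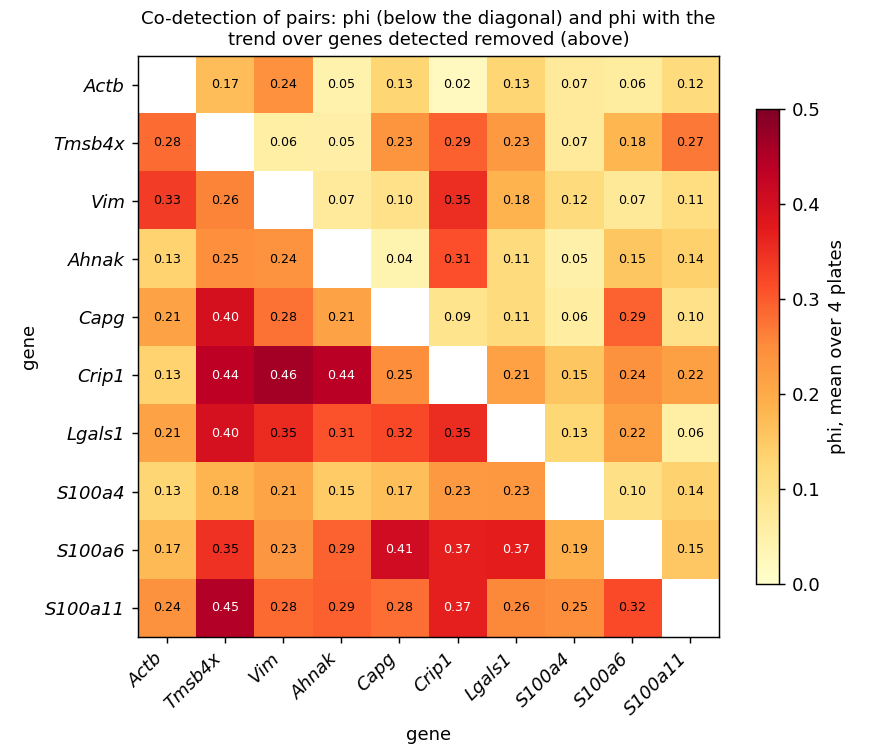
Phi for each pair of the 10 genes, averaged over the 4 plates: below the diagonal from presence of a count, above it with the linear trend over log10 genes detected removed. Vim and Crip1 are highest on either side of the diagonal, at 0.46 and 0.35, and no value is below 0.

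Among the genes whose level per cell was most like the mean of the 10 were Actg1, Eno3, Eef2, Pfn1 and Ubb-ps. Their mean within-plate Spearman correlations were 0.55, 0.55, 0.54, 0.54 and 0.53 over all kept cells. Among the 821 genes eligible the median was 0.21. Actg1 encodes gamma-actin, which is nearly identical to beta-actin, and Pfn1 the actin monomer binder profilin 1. Eef2 is a translation elongation factor and Eno3 a muscle-type enolase of glycolysis. The mean of the 10 genes had a correlation of 0.59 with the number of genes detected, which all of these values share.

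Among related genes none was called, and the share of positive fold changes differed between lists, beside 46.6% of all genes. Of 45 actin cytoskeleton genes tested, 26 were positive (median log2 fold change 0.48), led in level by Coro1a, Actg1 and Tpm3 at 0.76 ± 0.62, -0.39 ± 0.54 and 0.99 ± 0.59. All 13 other S100 and annexin genes tested were positive (median 1.09), with Anxa6, Anxa2 and S100a10 at 1.09 ± 0.84, 0.88 ± 0.84 and 1.15 ± 1.06. All 4 other galectins tested were positive (median 2.45).

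Among these galectins, Lgals3 had 1500 and 239.2 CPM on the imiquimod plates and 151.03 and 158.01 CPM on the vehicle plates, with a log2 fold change of 2.49 ± 1.10 (edgeR adjusted p = 0.425). Lgals4 had 429 and 266.1 CPM on the imiquimod plates and 38.5 and 91.6 CPM on the vehicle plates (2.42 ± 1.53), and Lgals9 stood at 3.15 ± 2.41. Lgals3 and Lgals4 were above both vehicle plates on both imiquimod plates, as were 13.7% of all genes, and Lgals9 was not. Of 15 filament, lamin and tubulin genes 10 were positive (median 0.50), with Lmna, Plec and Tubb5 at 0.09 ± 0.38, -0.65 ± 0.86 and 1.20 ± 0.95. Of 14 LIM and CRIP genes 5 were positive (median -0.09), with Limd2, Lims1 and Lasp1 at -0.13 ± 1.16, -0.87 ± 1.31 and 1.58 ± 1.64. No gene of these 5 lists passed edgeR's adjusted threshold, and the positive counts share the plates and the scaling of the 10 genes.

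In wells of 10 cells, where fewer expressing cells and less RNA per cell cannot be told apart, the genes were detected nearly throughout. Every one of the 16 wells had counts of Actb, Tmsb4x, Vim, Ahnak, Capg, Crip1, Lgals1 and S100a6. S100a4 was missing from 3 wells and S100a11 from 1. The second POS2 well held 25603 CPM of fibroblast markers beside 896 CPM of T cell markers, and the third POS4 well 4075 CPM of macrophage and dendritic cell markers. The part of these markers in the levels was not tested. The titles name 4 sets of 4 wells, POS, POS2, POS3 and POS4, and POS3 stood apart, as noticed after its values were seen. POS3 carries sample numbers of the same block of 96 as imiquimod plate 1, and its treatment is not labelled.

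Tmsb4x was 1572 to 2418 CPM in the 4 POS3 wells, against at most 320 CPM in the other wells except the fourth well of POS4, where it was 562 CPM. Lgals1 was 3085 to 7530 CPM in POS3, against at most 1335 CPM elsewhere and 6735 CPM in that well. Crip1 was 2730 to 4574 CPM in POS3, against at most 2090 CPM elsewhere and 4760 CPM in that well. S100a4 and S100a6 were likewise higher, at 477 to 2018 CPM and 1157 to 2045 CPM in POS3, against at most 190.5 and 411 CPM elsewhere, and 4444 and 261.96 CPM in that well. Actb, Vim, Ahnak, Capg and S100a11 overlapped between POS3 and the other wells. Short transcripts moved with the set: genes under 1000 bases took 25.6% to 34.7% of counts in POS3, against at most 11.7% elsewhere and 31.7% in the fourth POS4 well. Ribosomal protein genes summed to 84124 to 131293 CPM in POS3, against at most 27030 CPM elsewhere and 116666 CPM in that well. The fourth POS4 well was also the shallowest, with 710021 counts, and the part of these shifts in the levels was not tested.

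**Figure D5:**
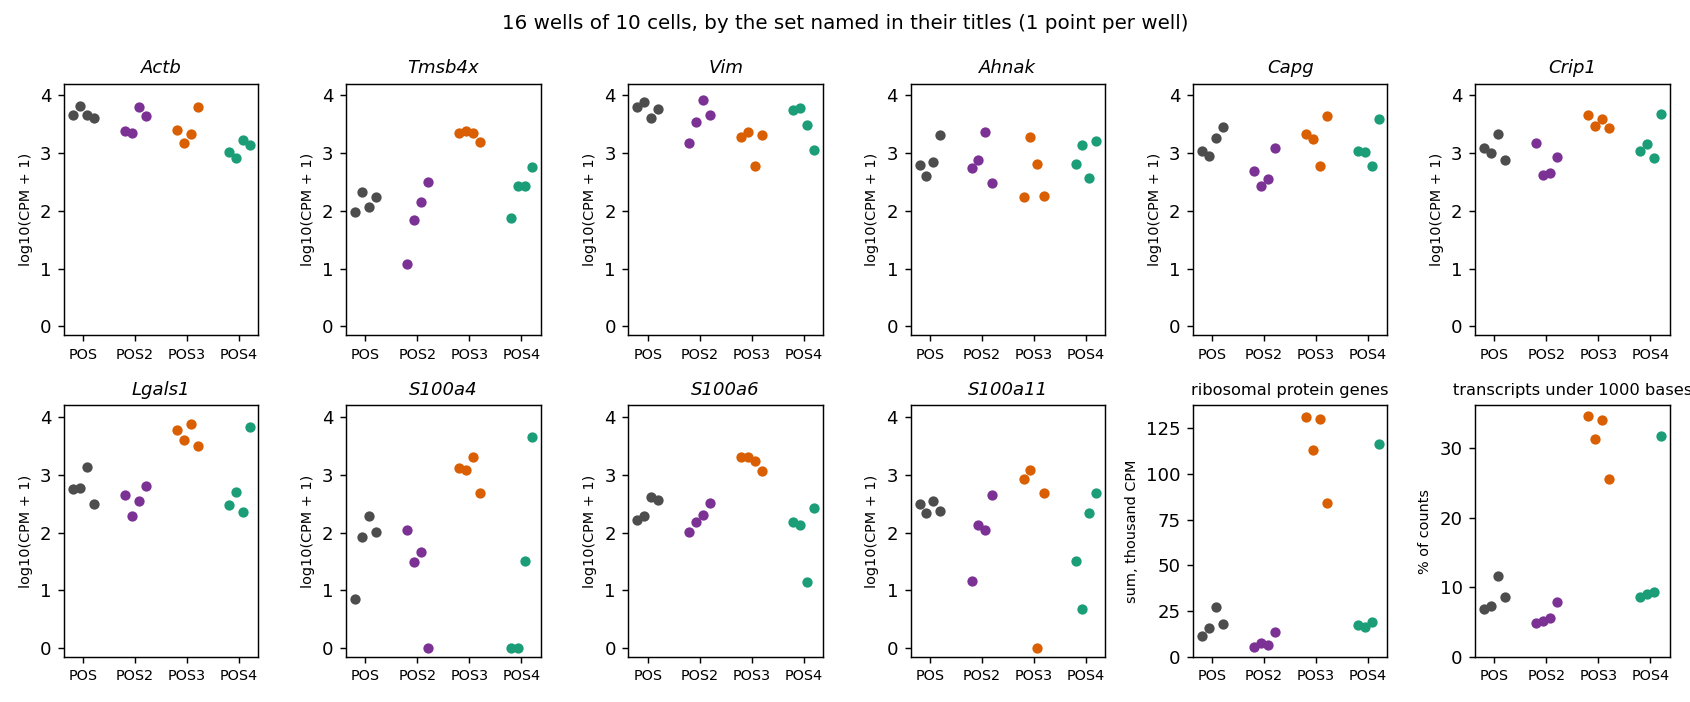
Level of each gene as log10(CPM + 1) in 16 wells of 10 cells by set, with 1 point per well, and in the last panels the summed ribosomal protein genes in CPM divided by 1000 and the share of counts in genes with transcripts under 1000 bases. POS3 and the fourth well of POS4 are high in Lgals1, Crip1, S100a4 and both last panels, while Actb and Vim of POS3 are within or below the range of the other sets.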

How the data were processed

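The values are raw counts of reads per gene and well, as deposited by the authors in 1 matrix of 384 wells. The submitters' processing notes name mm39 as the build, and Trimmomatic 0.39, SAMtools 1.12 and STAR 2.7.3a as tools. Which tool counted reads, on which annotation and strand setting, is not given in the sources used here. Per the labels' protocols, oligo dT cDNA was amplified for 24 cycles and libraries for 12. No molecular identifiers are mentioned, so PCR copies count as several reads and limits cover counting error only.

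Counts of kept cells were summed per plate, filtered with filterByExpr, scaled by TMM and tested with edgeR 4.0.16 (R 4.3.3) with p-values adjusted by Benjamini-Hochberg and held against 0.05. P-values measure the spread between plates, which may be technical. Alternatives were DESeq2 1.42.0, its size factors, limma 3.58.1 with a pseudocount of 1, other filters, thinning and leaving out plates; a T cell marker filter, leaving out plates for shares and trend removal were chosen after seeing the data. Transcript lengths came from GENCODE M21 (GRCm38, not mm39), taking the transcript of longest coding sequence; this definition and the limit of 1000 bases were chosen after seeing the data. The procedures were tested on simulated data. No doublet caller was run on sorted wells.

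Named genes were the 10 genes, the 3 of highest level in each related list, and the 6 most like the 10 genes among genes in at least 25% of kept cells. A gene that this rule names is not reported here. The genes and lists were chosen with earlier results of these data known.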

Additional observations from a re-analysis of the deposited data

How the results depend on the processing

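Differences in the share of cells with a count (imiquimod minus vehicle, percentage points) changed sign for Actb at 10 CPM (2.77), thinned to 40000 counts (4.33) and in cells with at least 1000 genes (3.74). With at least 1000 genes they also changed for Vim (1.01), Capg (0.633), Lgals1 (4.29; 0.884 at 10 CPM) and S100a6 (3.72), and the number of the genes per cell differed by 1 (0.25 at 10 CPM and thinned). Leaving out a plate gave -10.6 to -3.26 for Actb, -21.5 to 3.12 for Tmsb4x, -11.1 to -8.09 for Vim, -11.6 to 13.4 for Ahnak, -9.17 to 3.86 for Capg, 4.75 to 7.74 for Crip1, -17.3 to 12.3 for Lgals1, -21.4 to -3.46 for S100a4, -5.85 to 5.64 for S100a6 and -19.1 to -3.46 for S100a11. It gave -1 to -0.5 for the number per cell, 0.264 to 0.292 for mean phi, 0 to 794 for genes called and -0.20 to 2.01 for the median log2 fold change. Removing the gene-number trend moved mean phi to 0.144.

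DESeq2 called 3740 genes and edgeR without an expression filter 9; without imiquimod plate 1 it called 1.02% of 20984 genes and without imiquimod plate 2 it called 794 genes, in fits where the lone imiquimod plate is assumed to vary like the vehicle plates. The median log2 fold change was 0.011 in limma. DESeq2 size factors moved the median of all genes from -0.26 to 0.11. With DESeq2 and with its size factors, Actb turned to 0.13 and Vim to 0.56. Limma gave 0.48 for Actb, -0.042 for Tmsb4x and -0.11 for Capg. Without the highest cell per plate Actb was 0.15 and Vim 0.45, and with at least 1000 genes Vim was 0.17. Leaving out a plate gave -1.80 to 0.33 for Actb, -0.76 to 0.63 for Vim (0.13 without vehicle plate 1), -1.12 to 2.52 for Tmsb4x, -0.048 to 2.07 for Capg, -0.12 to 2.24 for Crip1 and -0.29 to 3.29 for S100a11. Ahnak, Lgals1, S100a4 and S100a6 kept their sign under all 13 alternatives. The cause of these changes was not tested. No paired analysis was possible because the plates share no replicate numbers across treatments.

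With 2 plates per treatment an exact permutation p cannot go below 0.333, and plate and treatment cannot be told apart beyond the spread of 2 plates. Single cells held large parts of several sums, and detection followed library richness.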
